A study of Mus musculus with 9 samples.

Results

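Wnt ligands, their receptors and their secreted inhibitors were followed on 9 Affymetrix arrays of the mouse urogenital sinus, the embryonic tissue from which the prostate and urethra of males and the lower vagina of females develop. Genes were taken by symbol: Wnt, Fzd, Sfrp, Dkk and Rspo genes with a number, Lrp5, Lrp6, Lgr4 to Lgr6, Ror1, Ror2, Axin2, Lef1 and Wif1. The rule found 52 genes among the 18193 genes with a probe set of a single symbol, and each was read from its brightest probe set. The arrays carried RNA of C57BL/6 mice, fetuses at E17 and E18 and newborns at P0. Their mothers had received vehicle (control), 0.2 µg/kg/day of DES (diethylstilbestrol, a potent estrogen made by synthesis) or 20 µg/kg/day of BPA (bisphenol A, a building block of polycarbonate plastic that binds estrogen receptors weakly) on embryonic days 13 to 16. Both agents were dissolved in corn oil. There was 1 array for each agent and age. Sinuses of males and females were dissected free of neighbouring ducts and bladder, and neither the sex nor the number of animals behind an array is given in the sources used here.

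Wnt proteins are secreted lipid-modified signals that bind Frizzled receptors. With Lrp5 or Lrp6 as a co-receptor they stabilise beta-catenin, which acts with Lef1 and its relatives on target genes such as Axin2. With Ror receptors they steer cell polarity and movement instead. Rspo proteins and their Lgr receptors keep Frizzleds at the cell surface, whereas Sfrp and Wif1 proteins bind Wnts and most Dkk proteins block Lrp co-receptors. In the urogenital sinus this pathway takes part in prostate bud formation, with many of the ligands and inhibitors made in the mesenchyme.

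In a model with age and agent as factors (limma, Benjamini-Hochberg adjustment over all tested genes), no member passed an adjusted p of 0.05 in any of the 6 comparisons. The members that came closest were Wnt5a and Dkk3, which read higher at P0 than at E17 with adjusted p = 0.0867 and 0.0877. For Wnt5a this rested on the brightest probe set, and the mean of all its probe sets gave 0.03. Among the agents, the largest difference was that of Dkk2, an inhibitor that read highest on the DES arrays. Secreted inhibitors (Dkk2, Sfrp2, Sfrp5, Wif1) held 4 of the 6 unadjusted p-values under 0.05 for DES and 3 of the 4 (without Dkk2) for BPA. Both comparisons use the same control arrays. A second Sfrp5 probe set gave 0.41 for DES but -0.25, the opposite direction, for BPA. Wif1 was not lower in BPA at E17 (0.06). The members' shares were 14.3% for DES, against 6.37% of all genes, and 9.52% for BPA, against 8.29%. Of the 8 inhibitors tested, 4 were higher and 4 lower after each agent. The signals are scaled brightness values of probe sets. In bulk tissue, fewer cells of a type and less RNA per cell cannot be told apart. Nothing in the labels says whether an array came from 1 animal or a pool. With 1 array per agent and age, no condition was repeated, and an agent's arrays at the 3 ages serve as its repeats. The p-values therefore rest on the spread left after agent and age (4 residual degrees of freedom). That spread mixes agent differences that change with age, differences between animals and technical spread.

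The arrays differed in brightness and in marker genes, and the part of this in the members' values was not tested. Before scaling, the trimmed mean signal was 157 on the BPA P0 array and 235 to 277 on the other 8. Of 10 urogenital sinus markers 8 were measured and 7 were above the detection filter, with summed levels of 3890 to 5549, and Shh, the ligand of the sinus epithelium, read 1136 to 1949. The BPA P0 array stood apart in gonad markers (9 of 10 measured, 2 above the filter), whose summed level was 3747 there against 335 to 503 on the other arrays. Most of that sum was Inha (1813) and Hsd3b1 (887), while Star, at 101, lay within the range of the other arrays. Keratinised epidermis markers (8 of 8 measured) summed to 19160 on the BPA P0 array and 7537 on the BPA E18 array, against 1146 to 2353 on the others.

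The promoters of Dkk2, Sfrp2, Sfrp5 and Wif1 are shown because these inhibitors had the smallest p-values among the members for DES against vehicle. Of the 52 members, 34 matched a RefSeq promoter on GRCm38.p6, with 40 start sites. The 250 bases before each start were searched on both strands for the estrogen response element (GGTCA, any 3 bases, then TGACC) and for its arm GGTCA, which is part of the element. Capitals mark GGTCA or its reverse complement, and each run ends at the base before the start.
Dkk2, chr3:132085042-132085291, plus strand: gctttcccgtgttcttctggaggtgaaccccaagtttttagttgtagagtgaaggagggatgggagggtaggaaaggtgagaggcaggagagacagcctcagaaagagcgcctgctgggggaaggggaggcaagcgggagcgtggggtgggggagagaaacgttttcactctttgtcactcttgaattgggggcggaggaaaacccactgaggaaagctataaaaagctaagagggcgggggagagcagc
Sfrp2, chr3:83766071-83766320, plus strand: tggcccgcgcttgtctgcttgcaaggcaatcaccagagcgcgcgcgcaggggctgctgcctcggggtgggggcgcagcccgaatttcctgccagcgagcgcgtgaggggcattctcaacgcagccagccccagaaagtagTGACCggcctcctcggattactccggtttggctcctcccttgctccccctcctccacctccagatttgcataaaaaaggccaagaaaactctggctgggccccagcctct
Sfrp5, chr19:42202253-42202502, minus strand: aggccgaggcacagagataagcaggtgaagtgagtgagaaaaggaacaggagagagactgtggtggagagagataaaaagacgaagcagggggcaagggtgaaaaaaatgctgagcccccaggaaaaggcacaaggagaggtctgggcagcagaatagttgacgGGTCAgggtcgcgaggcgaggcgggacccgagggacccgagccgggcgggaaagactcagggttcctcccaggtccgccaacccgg
Wif1, chr10:121033754-121034003, plus strand: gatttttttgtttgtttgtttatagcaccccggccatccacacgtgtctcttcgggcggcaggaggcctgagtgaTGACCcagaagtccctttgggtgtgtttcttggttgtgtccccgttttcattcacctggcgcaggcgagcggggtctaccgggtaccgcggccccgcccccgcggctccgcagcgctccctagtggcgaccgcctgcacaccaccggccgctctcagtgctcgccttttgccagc

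The full element was found in 0 of the 40 member windows and in 0.0639% of all 32841 promoter windows. The arm was found in 16 of 40 (40%) against 35.2% of all windows, with 1 match each in Sfrp2, Sfrp5 and Wif1 and 0 in Dkk2. The TCF/LEF core CTTTGAT, the sequence that Lef1 and its relatives recognise, was found in 2 of 40 windows (5%), those of Wnt5b and Wnt11, against 3.21% of all. A match is a description of the letters and not a bound site.

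Of the 52 members, 42 were above the detection filter, a signal of 41.2, and were tested. The 10 below it were the ligands Wnt1, Wnt3, Wnt3a, Wnt8a, Wnt8b, Wnt10b and Wnt16, the co-receptor Lrp5, Rspo4 and Dkk4, whose signals lay between 0.565 and 52.6. Each of the 10 Frizzled receptors was above it. The filter is a cut on mean brightness at the 40th percentile and not a detection call. Some members that passed it, Wnt7a and Fzd10 among them, had other probe sets below it. The symbol rule also took in Fzd10os, a transcript named for the strand opposite Fzd10, which read 119 to 163. Across the 9 arrays the highest signal of a tested member was 1.24 to 2.50 times the lowest, with a median of 1.59, against a median of 1.51 over the 13399 genes tested. A probe set's brightness depends on its sequence, so levels are compared between arrays and not between genes.

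Among the ligands, Wnt5a, which signals through Ror receptors, read 999 to 1527 and Wnt4, a ligand of the Mullerian and kidney mesenchyme, 505 to 757. The brightest receptors were Fzd1, at 2966 to 3736, and Fzd7, at 1227 to 1968, while the co-receptor Lrp6 read 843 to 1122 and Ror1 636 to 845. Lgr4, a receptor for Rspo proteins, read 889 to 1403, and Rspo3 786 to 1426. These are the 2 brightest probe sets of each role. Sfrp2 and Sfrp1, both Wnt-binding inhibitors, read 4358 to 5413 and 1458 to 2347. Axin2, a feedback inhibitor that beta-catenin switches on, read 393 to 548, and Lef1, a DNA-binding partner of beta-catenin, 102 to 212.

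Across the arrays, the signal ranges of the other tested ligands were Wnt2 255 to 352, Wnt2b 34.7 to 55.5, Wnt6 193 to 336, Wnt7a 108 to 207 and Wnt7b 301 to 378. Further ligands, with the same measure, were Wnt5b 52.2 to 125, Wnt9a 120 to 198, Wnt9b 75.2 to 120, Wnt10a 64.6 to 127 and Wnt11 210 to 319. The widest range among the tested ligands was 2.38-fold. The remaining Frizzled receptors read Fzd2 1212 to 1544, Fzd3 302 to 400, Fzd4 275 to 444, Fzd5 166 to 234 and Fzd6 579 to 719, and Fzd8 122 to 179, Fzd9 37.7 to 81.3 and Fzd10 236 to 304. Among the Rspo ligands, which raise the sensitivity of a cell to Wnt, the signal ranges were Rspo1 50.1 to 104 and Rspo2 84.4 to 166, and among their receptors Lgr5 174 to 274 and Lgr6 75.9 to 159. The other inhibitors were Dkk1 42.2 to 63.1, Dkk2 353 to 882, Dkk3 344 to 598, Sfrp4 181 to 281, Sfrp5 82.1 to 136 and Wif1 294 to 635, of which Dkk1, the classic blocker of Lrp6, was close to the filter.

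**Figure D1:**
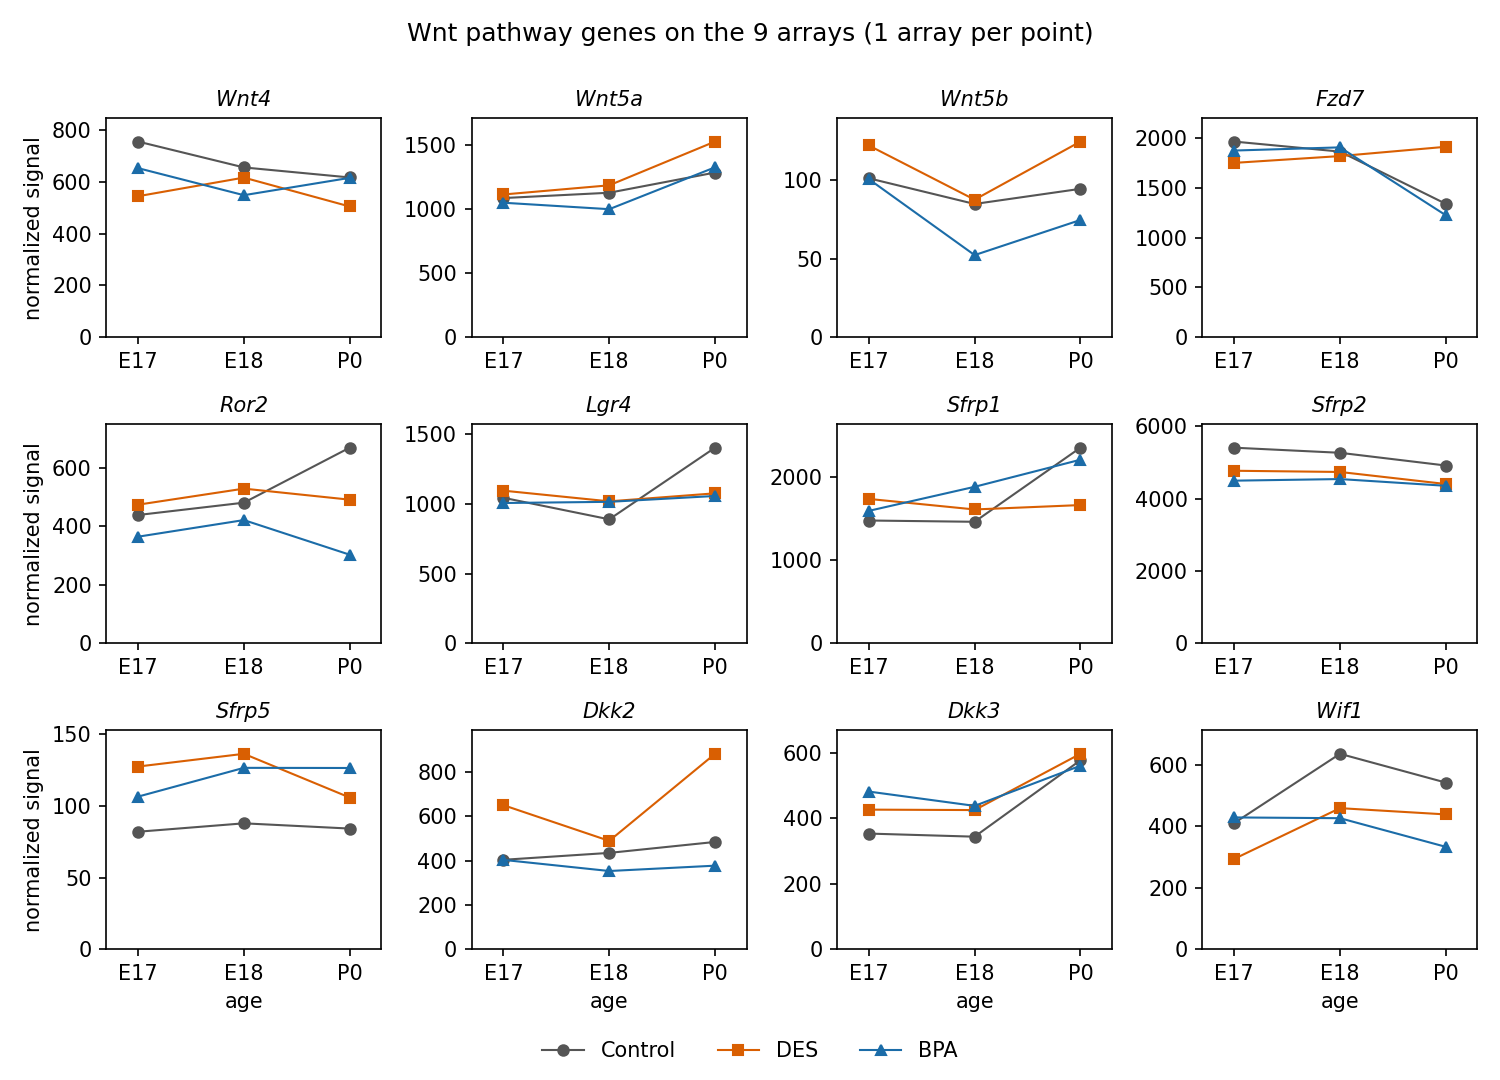
Normalized signal (vertical axes, linear, starting at 0) of 12 genes against age, with 1 array per point and a line for each agent. Dkk2 read highest on the DES arrays at each age, Sfrp5 lay above the control arrays on each DES and BPA array, and Fzd7 at P0 read 1342 in control, 1227 in BPA and 1915 in DES.

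The comparison of DES with vehicle asked what a potent estrogen does to the pathway. By limma 0 of 42 members passed the adjusted threshold (smallest adjusted p = 0.775), as did 0 of all genes (0%). At an unadjusted p under 0.05 there were 6 members (14.3%), against 6.37% of all genes tested. The median difference over the members was 0.06 log2 units, with 22 higher and 20 lower, against 0.02 over all genes.

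The inhibitors came first. Dkk2 binds Lrp co-receptors and can block or weakly activate the pathway. Its signal was 404, 435 and 484 in the control tissue (E17, E18 and P0 in that order), against 650, 489 and 882 after DES. Each DES array read above the 3 control arrays, by a small margin at E18. The log2 difference was 0.57 ± 0.15 (SE, 95% interval 0.24 to 0.90, limma adjusted p = 0.775). Sfrp5, a soluble Wnt-binding protein, read 82.1, 88.0 and 84.3 on the control arrays and 128, 136 and 106 on the DES arrays. The groups did not overlap, and the log2 difference was 0.51 ± 0.16 (95% interval 0.15 to 0.86, adjusted p = 0.775). A second Sfrp5 probe set gave 0.41.

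Sfrp2, an Sfrp of mesenchyme, was lower on each DES array: 5413, 5272 and 4919 in control against 4774, 4741 and 4408. The difference was small, -0.16 ± 0.05 (95% interval -0.28 to -0.04, adjusted p = 0.775), and the DES arrays lay below each control array. Wif1, which binds Wnts outside the cell, read 410, 635 and 542 in control and 294, 459 and 438 in DES. It was lower at each age but the groups overlapped, with a difference of -0.41 ± 0.16 (95% interval -0.77 to -0.05, adjusted p = 0.775). Without the DES E17 array it was at -0.27. Sfrp1 depended on the probe set: its brightest gave -0.04, and the next, almost as bright, -0.34 ± 0.07. Its dimmer probe sets gave 0.01, 0.03 and -0.003.

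Of the ligands, Wnt4 read 757, 656 and 618 in control and 545, 617 and 505 in DES, the DES arrays lying just below the control arrays. Its difference was -0.28 ± 0.11 (95% interval -0.53 to -0.03, adjusted p = 0.775), and a second probe set gave -0.15. Of the co-receptors, Ror1 was at -0.20 ± 0.09 (95% interval -0.39 to -0.0049, adjusted p = 0.775), with -0.30 and -0.16 from its other probe sets. Of the 10 Frizzled receptors 5 were higher and 5 lower, between -0.21 and 0.13. Axin2 (0.18 ± 0.10) and Lef1 (0.16 ± 0.20) were a little higher, with 95% intervals of -0.05 to 0.40 and -0.28 to 0.59, both of which hold 0.

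BPA against vehicle is the comparison named in the title of the series. By limma 0 of 42 members passed (smallest adjusted p = 0.336, Sfrp2), against 2 of all genes (0.0149%). At an unadjusted p under 0.05 there were 4 members (9.52%), close to the 8.29% of all genes. The median over the members was -0.06, with 14 higher and 28 lower, against 0.01 over all genes. Both comparisons use the same 3 control arrays, so a gene that departs in both may do so through those arrays.

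Sfrp2 read 4500, 4544 and 4358 on the BPA arrays, each below the control arrays, with a difference of -0.22 ± 0.05 (95% interval -0.34 to -0.10, adjusted p = 0.336). Sfrp5 read 107, 127 and 127, each above the control arrays, at 0.47 ± 0.16 (95% interval 0.11 to 0.83, adjusted p = 0.453). Here the second probe set of Sfrp5 gave -0.25, the opposite direction. Wif1 read 429 at E17, where control read 410, and then 426 and 333 at E18 and P0 against 635 and 542. Its difference over the ages was -0.40 ± 0.16 (95% interval -0.76 to -0.04, adjusted p = 0.556).

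Ror2, a receptor kinase for Wnt5a, read 438, 480 and 668 in control and 364, 421 and 303 in BPA. Each BPA array lay below the 3 control arrays, and the gap was widest at P0. The difference was -0.53 ± 0.16 (95% interval -0.89 to -0.16, adjusted p = 0.408). It was -0.28 without the control P0 array, -0.32 without the BPA P0 array, and between -0.53 and -0.66 when any other array was left out. The BPA P0 array carries gonad and epidermal signal and the BPA E18 array epidermal signal, and the part of either in the Ror2 value was not tested. At E17 Ror2 was at -0.26, and at E18, with the epidermal signal in the BPA array, at -0.19. Both marker sums of the BPA E17 array were within the range of the control and DES arrays. That array differed in other markers: its skeletal muscle sum (3280) was the lowest of the 9 arrays. Its epithelium (14090) and urothelium (6702) sums were the highest. Rspo1 and Wnt4, members that gonads also express, read 75.7 and 616 on the BPA P0 array, within the range of the other arrays. Whether the tissue behind the gonad signal of that array expressed these 2 genes is not known. The part of gonad signal in these or any other member's values was not tested.

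Among the other members, the ligand Wnt6 was at 0.32 ± 0.16, with 0.78 at P0 against 0.13 and 0.05 at the earlier ages (95% interval -0.02 to 0.67, adjusted p = 0.638). Of the 10 Frizzled receptors 9 were lower, none with an unadjusted p under 0.05, and the median was -0.07. Axin2 was at -0.02 ± 0.10 and Lef1 at -0.09 ± 0.20. Lef1 read 102 on the BPA P0 array and 157 to 212 on the other arrays.

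Marker genes of other cell types differed between the agents too. Urothelium markers (5 of 5 measured, none at 0) summed to 3529 to 4125 on the control arrays, 4500 to 5814 on the DES arrays and 4789 to 6702 on the BPA arrays. Smooth muscle markers (8 of 8, none at 0) summed to 21590 to 35567 in control, 27837 to 31325 in DES and 34992 to 38140 in BPA. Neuron and glia markers (4 of 7 measured, none of these at 0) summed to 4221 to 4756 in control, above the 3719 to 4124 in DES and the 3719 to 4105 in BPA. Skeletal muscle markers (9 of 9, none at 0) summed to 6340, 11018 and 12069 in control at E17, E18 and P0, to 6557, 9800 and 13306 in DES and to 3280, 8009 and 9651 in BPA, which was the lowest at each age. Mesenchyme markers (8 of 8) summed to 62050 to 67622 over the 9 arrays. Very bright genes such as Col3a1 (13504 to 14410) make up most of that sum. Quantile normalization gives every array the same top values, so an even sum says little about mesenchyme content. The part of cell makeup in the Sfrp2, Sfrp5, Wif1 and Ror2 values was not tested.

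**Figure D2:**
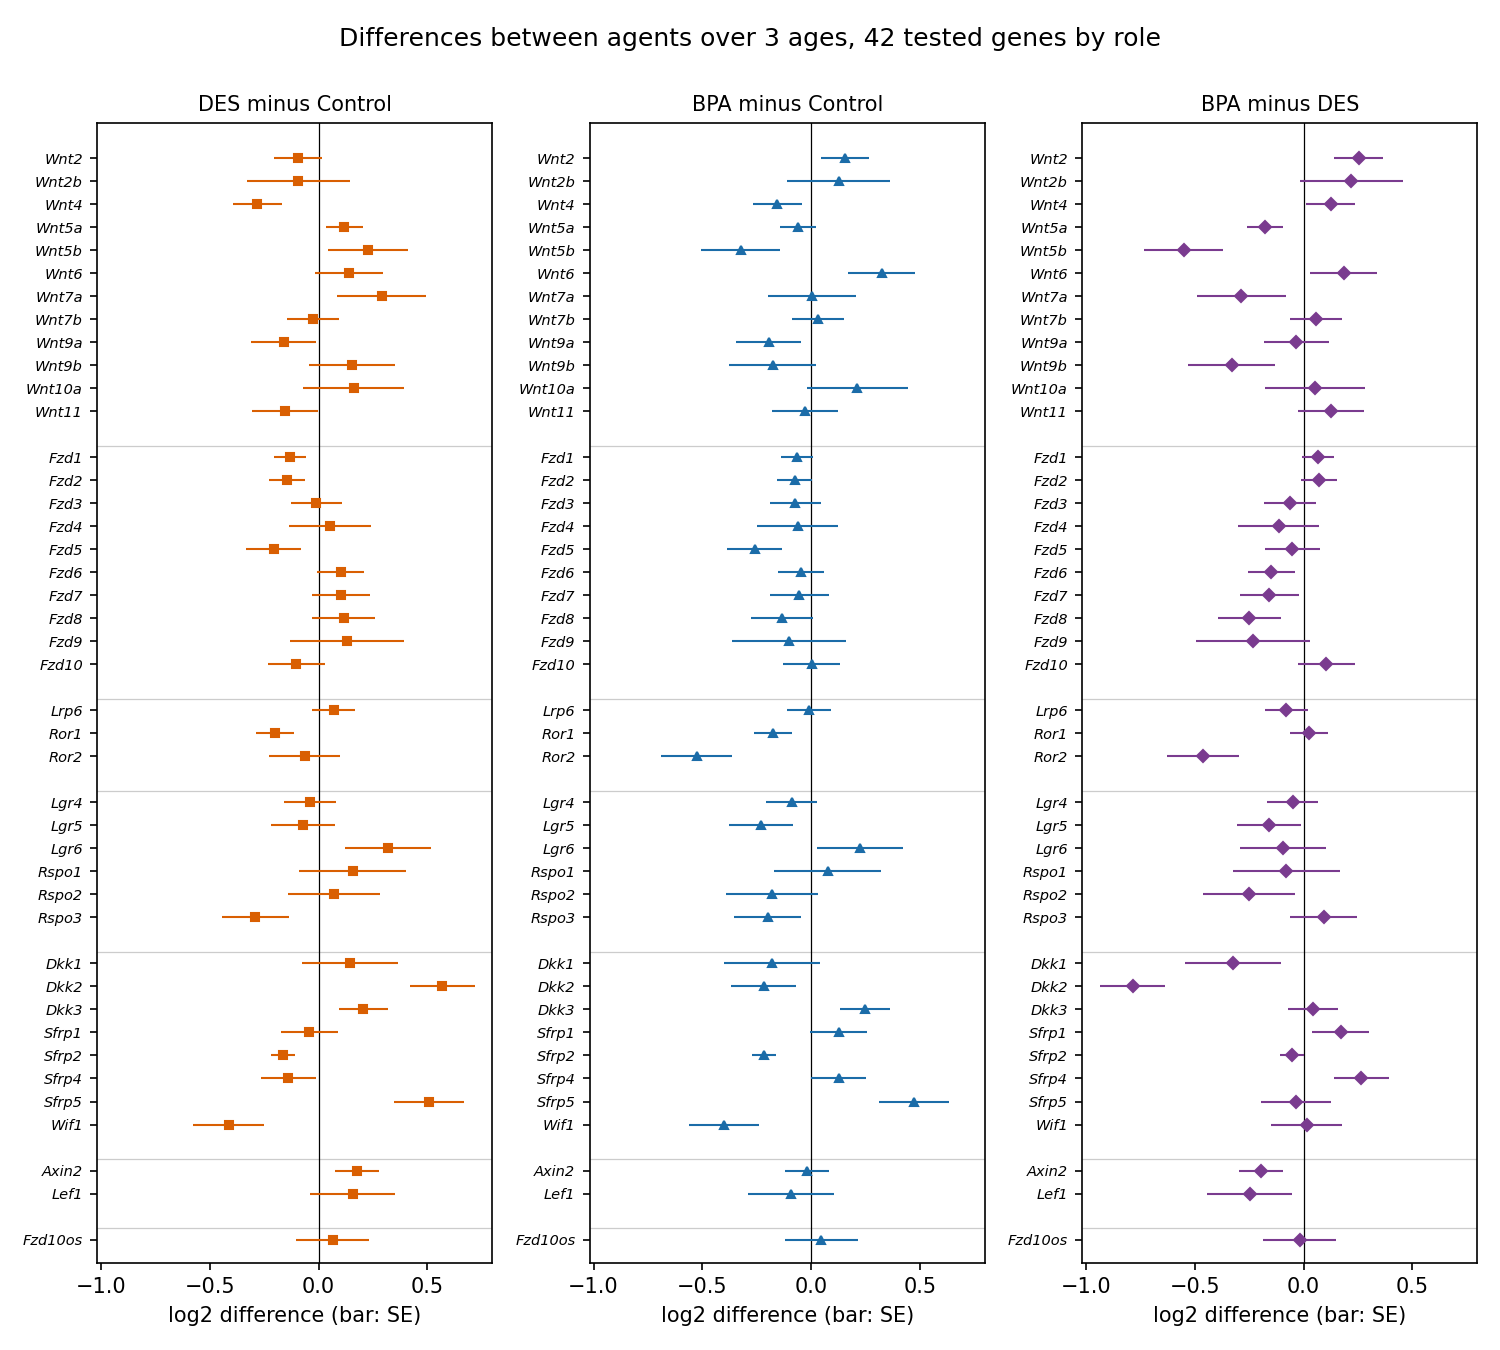
Log2 differences between agents (horizontal axes, in log2 units; points are limma estimates over 3 ages, bars the SE) for the 42 tested genes, grouped by role. Dkk2 lies at 0.57 for DES and -0.22 for BPA against control, and Sfrp5 at 0.51 and 0.47.

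BPA and DES were also set against each other at the same ages, a comparison that uses no control array for its means. The doses differ, so it compares the treatments as given. By limma 0 of 42 members passed (smallest adjusted p = 0.477, Dkk2), as did 0 of all genes (0%). At an unadjusted p under 0.05 there were 4 members (9.52%), against 7.81% of all genes.

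Dkk2 read 403, 353 and 377 on the BPA arrays, all below the DES arrays at 650, 489 and 882. The log2 difference was -0.79 ± 0.15 (95% interval -1.12 to -0.46, limma adjusted p = 0.477). With the deposited intensities left unscaled, a setting in which all genes had a median of -0.34, Dkk2 was at -1.13 and passed (adjusted p = 0.00332). Against control, BPA gave Dkk2 -0.22 ± 0.15. Dkk2 has a single probe set on this array. For Sfrp1 the brightest probe set gave 0.17 and the next, almost as bright, 0.42 ± 0.07. Its dimmer probe sets gave 0.29, -0.19 and -0.003.

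Wnt5b, a close relative of Wnt5a, read 101, 52.2 and 74.6 in BPA and 122, 87.5 and 125 in DES, lower in BPA at each age although the groups overlapped. The difference was -0.55 ± 0.18 (95% interval -0.96 to -0.14, adjusted p = 0.573), and -0.23 by a second probe set. Ror2 was at -0.46 ± 0.16 and lower at each age (95% interval -0.83 to -0.10, adjusted p = 0.591). Without the BPA P0 array it was at -0.26, and averaged with its other probe set, which is below the filter, at -0.14. Wnt2, a ligand of mesenchyme, read 352, 324 and 295 in BPA against 278, 271 and 262 in DES, with no overlap. Its difference was 0.25 ± 0.11 (95% interval 0.01 to 0.50, adjusted p = 0.634), and it was -0.08 with the intensities as deposited. The intervals of Sfrp5 and Wif1 are wide enough that a difference between the agents cannot be set aside: Sfrp5 was at -0.04 ± 0.16 (-0.39 to 0.32) and Wif1 at 0.01 ± 0.16 (-0.35 to 0.37).

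The age comparisons ask how the pathway changes around birth. Between E17 and P0, 0 of 42 members passed by limma, against 83 of all genes (0.619%). At an unadjusted p under 0.05 there were 6 members (14.3%), fewer than the 19.2% of all genes. The median was 0.01, with 22 higher and 20 lower, against a median of 0.00 over all genes.

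Wnt5a read 1086, 1114 and 1050 at E17 in control, DES and BPA, and 1285, 1527 and 1326 at P0. Each P0 array lay above the 3 E17 arrays, and the difference was 0.34 ± 0.08 (95% interval 0.16 to 0.53, adjusted p = 0.0867). The 3 dimmer probe sets of Wnt5a gave 0.16, -0.08 and -0.29. Averaged over its 4 probe sets, the difference was 0.03. Dkk3, a divergent Dkk protein, read 354, 427 and 482 at E17 and 578, 598 and 561 at P0, again with no overlap. Its difference was 0.47 ± 0.11 (95% interval 0.21 to 0.72, adjusted p = 0.0877), and a second probe set gave 0.36.

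Axin2 was lower at P0 in each agent: 500, 534 and 510 at E17 against 394, 503 and 393. The DES arrays differed least. The difference was -0.26 ± 0.10 (95% interval -0.49 to -0.04, adjusted p = 0.201), and a second probe set gave -0.56. Lgr6, an Rspo receptor, read 115, 153 and 148 at E17 and 96.1, 113 and 75.9 at P0. All P0 arrays lay below the E17 arrays, at -0.52 ± 0.20 (95% interval -0.96 to -0.08, adjusted p = 0.194), but a second probe set gave 0.02, and without the BPA P0 array the difference was -0.27.

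Muscle markers differed with age beside these genes. The skeletal muscle sum was higher at P0 than at E17 in each agent. The smooth muscle sum was lower, at 35567 and 23134 in control, 30546 and 27837 in DES and 38140 and 34992 in BPA. Their part in the Wnt5a, Dkk3, Axin2 and Lgr6 values was not tested.

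By their brightest probe sets, Fzd7 and Sfrp1 differed between the agents in their course. Fzd7, a receptor of stem and progenitor cells, read 1968, 1867 and 1342 in control and 1878, 1910 and 1227 in BPA at E17, E18 and P0, but 1754, 1822 and 1915 in DES. Sfrp1 read 1473, 1458 and 2347 in control and 1589, 1878 and 2203 in BPA, against 1732, 1606 and 1659 in DES. In each case the DES P0 array lay with the prenatal arrays. These genes are named because they passed when the DES P0 array was left out, a choice made after their values were seen. That array went against the change in control and BPA, so an adjusted p without it is no test of the change.

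Without the DES P0 array, Fzd7 fell by 0.57 ± 0.08 log2 units between E17 and P0 (limma adjusted p = 0.0101) and Sfrp1 rose by 0.53 ± 0.11 (adjusted p = 0.0271). In that fit 1160 of all genes passed, 8.66%, against 2 of 42 members. With all arrays the differences were -0.35 ± 0.13 (adjusted p = 0.207) and 0.36 ± 0.13 (adjusted p = 0.182). With all arrays, the other 4 probe sets of Sfrp1 gave 0.14 to 0.53, and the other probe set of Fzd7 gave -0.15. The Sfrp1 probe set next in brightness, close to the brightest, gave 0.53 ± 0.07. For DES minus control it gave -0.34 ± 0.07, where the brightest gave -0.04. Courses within each agent were not read from the other probe sets.

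**Figure D3:**
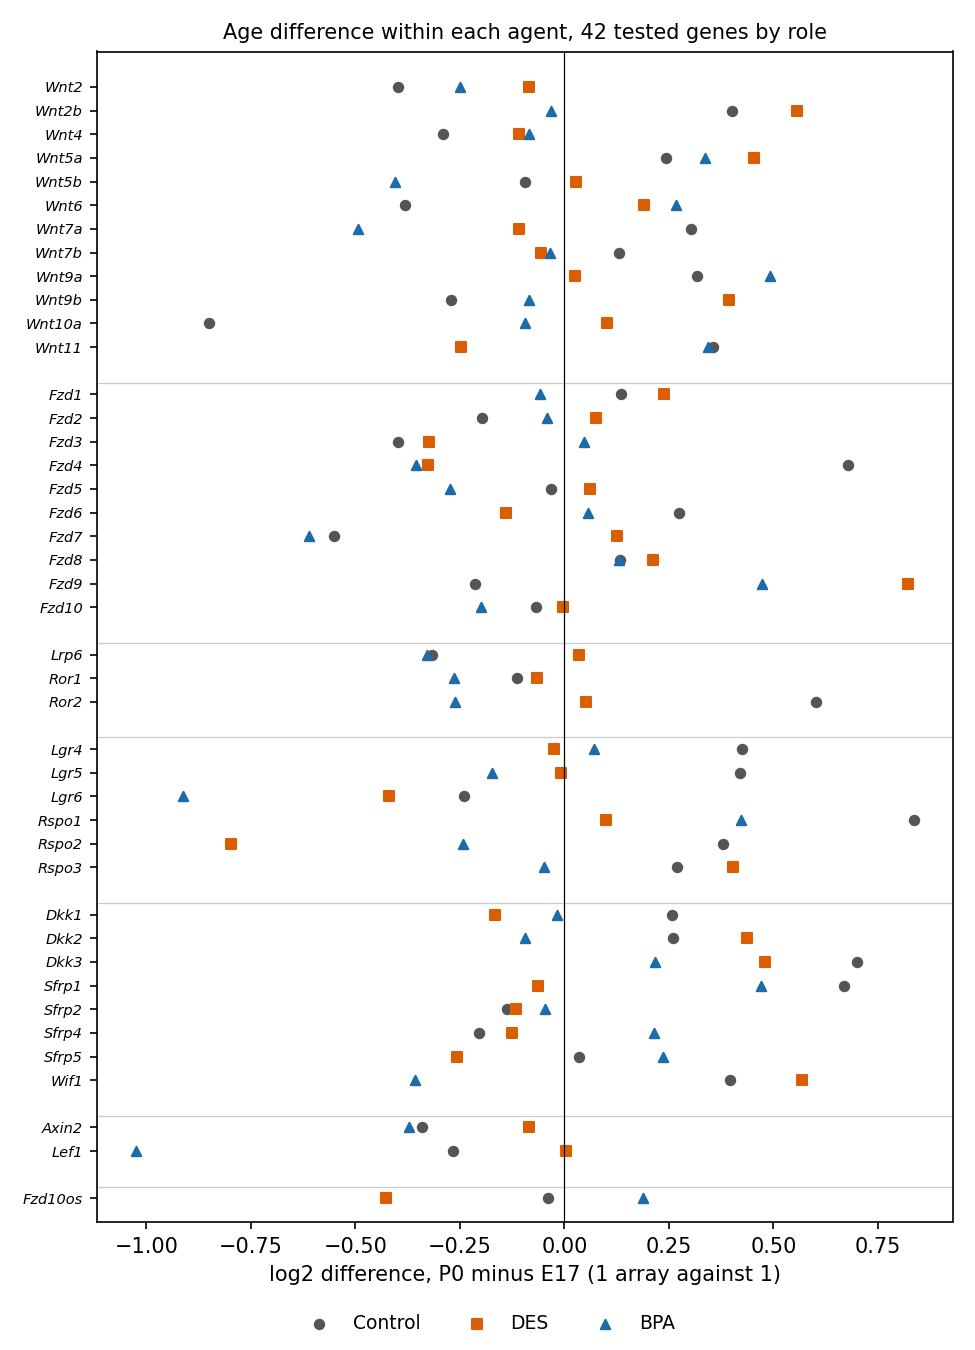
Log2 difference between P0 and E17 within each agent (horizontal axis, 1 array against 1, so no error is given) for the 42 tested genes, grouped by role. Fzd7 lies at -0.55 in control, -0.61 in BPA and 0.13 in DES, and Wnt5a and Dkk3 lie above 0 in each agent. Each gene is read from its brightest probe set, and the other probe sets of Wnt5a differed in direction.

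Between E18 and P0, 0 of 42 members passed, as did 0 of all genes by limma (0%), and 7 members (16.7%) had an unadjusted p under 0.05 against 14.3% of all genes. Dkk3 was at 0.52 ± 0.11 (95% interval 0.27 to 0.78, adjusted p = 0.182), with 0.67 from its second probe set. Wnt5a was at 0.32 ± 0.08 (adjusted p = 0.204), but its other probe sets gave 0.04, -0.12 and -0.30, and the mean of all 4 turned to -0.016. Axin2 was at -0.27 ± 0.10 (adjusted p = 0.291). Lgr4 read 1403 on the control P0 array and 889 to 1095 on all others, so that its difference of 0.26 ± 0.12 rested on that array and was 0.10 without it. Dkk2 was at 0.36 ± 0.15, with 0.84 in DES and 0.15 and 0.09 in control and BPA, and 0.18 without the DES P0 array. With all arrays, Fzd7 was at -0.35 and Sfrp1 at 0.32, and neither passed. With deposited values Sfrp1 was at 0.14. Without the DES P0 array, left out after its values were seen, Fzd7 fell by 0.57 ± 0.08 (limma adjusted p = 0.0182). In that fit Sfrp1 rose by 0.49 ± 0.11 (adjusted p = 0.04996), and 3.81% of all genes passed.

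Between E17 and E18, 0 of 42 members and 0 of all genes (0%) passed by limma, and 3 members (7.14%) had an unadjusted p under 0.05 against 3.19% of all genes. Wnt5b was at -0.52 ± 0.18 (95% interval -0.93 to -0.12, adjusted p = 1.0), lower at E18 in each agent, but its second probe set gave 0.12. Ror1 was at -0.23 ± 0.09 (95% interval -0.43 to -0.04), and its other probe sets gave -0.14 and -0.40. Wif1 was at 0.42 ± 0.16 (95% interval 0.06 to 0.78), higher in control (0.62) and DES (0.63) but not in BPA (-0.01).

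A linear age term for each agent tested if its signed difference from control changed from E17 to P0, in log2 units per age step. The sign of this slope does not say if the agent moved toward control or away from it. For DES 0 of 42 members and 0 of all genes (0%) passed by limma, and 4 members (9.52%) had an unadjusted p under 0.05 against 8.95% of all genes. They were Fzd4 (-0.50 ± 0.14), Sfrp1 (-0.37 ± 0.11), Fzd7 (0.34 ± 0.11) and Rspo2 (-0.59 ± 0.20), with adjusted p from 0.417 to 0.462. For BPA 0 of 42 members passed, against 8 of all genes (0.0597%), and 3 members (7.14%) had an unadjusted p under 0.05 against 9.69% of all genes.

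Those 3 were Fzd4 (-0.52 ± 0.14, adjusted p = 0.355), Wif1 (-0.38 ± 0.13, adjusted p = 0.418) and Ror2 (-0.43 ± 0.15, adjusted p = 0.424). Fzd4, a receptor of blood vessels among other tissues, read 275, 374 and 444 in control at E17, E18 and P0. It read 427, 352 and 339 in DES and 367, 381 and 286 in BPA, so that by this probe set only the control arrays climbed with age. A second Fzd4 probe set, nearly as bright, gave 0.18 for BPA minus control over the ages, where this one gave -0.06. The age step was not fitted on the second probe set. Both age terms of Fzd4 are set against the same control arrays. Endothelium markers (5 of 5 measured, none at 0) summed to 2530, 2638 and 2880 in control, 2386, 2575 and 2749 in DES and 2434, 2559 and 2656 in BPA, higher at each later age in all 3 agents.

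**Figure D4:**
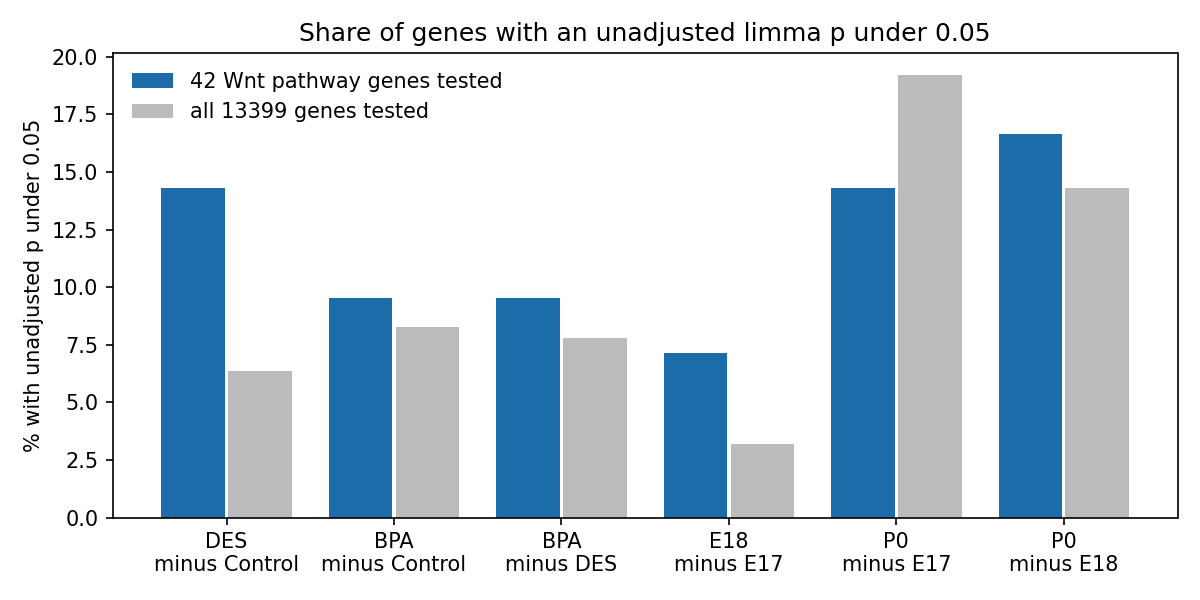
Percent of genes with an unadjusted limma p under 0.05 (vertical axis, starting at 0) in each of 6 comparisons, for the 42 tested Wnt pathway genes (blue) and all 13399 tested genes (grey). The members' share is above that of all genes for DES minus control (14.3% against 6.37%) and below it for P0 minus E17 (14.3% against 19.2%).

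Other genes of the pathway were counted from 4 lists: release and surface modulators (15 tested), the beta-catenin route inside the cell (25), planar cell polarity (13) and common targets of beta-catenin (16). By limma 0 of these 69 genes passed the adjusted threshold in any comparison. At an unadjusted p under 0.05 there were 3 (4.35%) for DES against control, where 6.37% of all genes did so. There were 7 (10.1%) for BPA against control and 5 (7.25%) for BPA against DES, beside 8.29% and 7.81% of all genes. The age comparisons gave 0 between E17 and E18, 16 (23.2%) between E17 and P0 and 14 (20.3%) between E18 and P0, beside 3.19%, 19.2% and 14.3% of all genes.

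Among the targets, Fst (follistatin, which binds activins) was lower at each age after both agents, at -0.35 ± 0.11 for DES and -0.40 ± 0.11 for BPA. It read 498, 545 and 677 in control, 420, 469 and 447 in DES and 356, 433 and 512 in BPA, and these comparisons share the control arrays. Twist1, a mesenchymal transcription factor, was at -0.37 ± 0.11 for BPA against control and -0.34 ± 0.11 for BPA against DES, and each BPA array lay below the others of its age. The co-repressors Tle1 and Tle4 were at -0.28 ± 0.09 and -0.26 ± 0.10 for BPA. Apcdd1, a membrane inhibitor of Wnt signalling, was at -0.26 ± 0.08 for DES.

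Rnf43, a ubiquitin ligase that removes Frizzleds from the surface, read 109, 149 and 113 in control and 99.7, 78.0 and 40.2 in BPA, at -0.79 ± 0.26 (adjusted p = 0.426). Gsk3b, the kinase that marks beta-catenin for destruction, read 467 on the BPA P0 array and 1295 to 1736 on the other arrays. Its difference of -0.68 ± 0.30 between BPA and DES was -0.07 at E17 and -0.18 at E18. Between E17 and P0, 8 of 16 targets (50%) had an unadjusted p under 0.05, in both directions, beside 19.2% of all genes. Cd44, a cell-surface glycoprotein, was at 0.52 ± 0.16, with 1.06 in control, where the P0 array read 1331, and 0.17 and 0.33 in DES and BPA. By contrast, Sox9 (-0.47 ± 0.16), Jag1 (-0.50 ± 0.17) and Tnfrsf19 (-0.35 ± 0.13) were lower, and the adjusted p was 0.137 for Cd44 and 0.157 to 0.186 for these 3. Dvl1, which relays the signal from Frizzled, was at -0.36 ± 0.11, and Wls, the carrier that exports Wnts, at 0.24 ± 0.08 between E18 and P0.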

How the data were processed

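The deposited values are MAS5 probe set intensities on a linear scale, per the submitters' processing notes and the values. The version, scaling target and any detection calls are not given in the sources used here. Because array medians differed, the 9 arrays were quantile-normalized over 45101 probe sets and transformed as log2(signal + 5.46), the 10th percentile. Fold changes of dim genes are therefore understated. Printed signals are normalized, without the added value. Gene symbols came from GEO's platform table (34945 with 1 symbol, 932 with several, 9211 with none). The brightest probe set represented each gene, and genes at or above the 40th percentile (13399) were tested with limma 3.58.1 in R 4.3.3 (agent and age as factors, eBayes with an intensity trend, 4 residual and 6.18 prior degrees of freedom), which was tested on simulated data. The age step model left 2 residual degrees of freedom.

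Genes were named by rule: members or listed pathway genes with an unadjusted p under 0.05 and the same sign at all 3 ages or in all 3 agents, plus the 2 brightest members of each role. Other genes named were chosen after their values were seen. The members, lists and tests were chosen with earlier results of these data known. The number of arrays limits the precision.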

Additional observations from a re-analysis of the deposited data

How the results depend on the processing

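Of 483 values of the named members under alternatives, 478 kept their direction and their side of the adjusted threshold. No member passed in the main fit, so keeping that side says little. For DES minus control, the unadjusted limma p stayed under 0.05 in 20 of 20 alternatives for Dkk2 but 7 of 20 for Ror1. It did so in 8 of 20 for Wnt2 (BPA minus DES) and 8 of 19 for Lgr4 (P0 minus E18). Wnt2 in BPA minus DES turned to -0.083 with deposited values, and with the mean of all probe sets Wnt5a and Lgr4 in P0 minus E18 turned to -0.016 and -0.0074. Dkk2 (BPA minus DES, deposited values) and Sfrp1 (P0 minus E18, without DES P0) newly passed. With deposited values the median of all genes moved to 0.11 for DES, -0.24 for BPA, -0.34 for BPA minus DES, -0.10 for E18 minus E17, -0.29 for P0 minus E17 and -0.18 for P0 minus E18.

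Counts over all genes moved more. Deposited values gave 1 for DES, 62 for BPA, 105 for BPA minus DES, 8 for E18 minus E17, 723 for P0 minus E17, 16 for P0 minus E18, and 36 and 206 for the age steps of DES and BPA. There 1 member passed in BPA minus DES (Dkk2) and 1 in the BPA age step (Fzd4). Without a filter the counts were 0 for BPA, 8 for P0 minus E17 and 1 for the BPA age step. P0 minus E17 gave 50 with the mean of all probe sets, 6 without an intensity trend, 27 without agent as a factor and 6 without the BPA E18 and P0 arrays. BPA gave 0 without a trend, without age as a factor and with only its 6 arrays, and 12 without the BPA E18 and P0 arrays, where BPA minus DES gave 11. Leaving out each array in turn gave 0 to 22 for BPA, 0 to 6 for BPA minus DES, 0 to 1 for E18 minus E17, 6 to 1160 for P0 minus E17 and 0 to 511 for P0 minus E18. The members called ran from 0 to 2 in P0 minus E17 and in P0 minus E18. The cause was not tested. Dim genes are limited by signal over background.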
